A study of Mus musculus with 2 samples.

Results

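Accessible chromatin was examined at 34 imprinted genes and their control regions in mouse lung. The genes were chosen by symbol in the GENCODE M21 annotation of mm10, both coding and noncoding, and are 34 of the 32093 protein-coding and long noncoding genes of that annotation. Lung came from male B6CASTF1/J mice, the F1 hybrid of the C57BL/6J and CAST/EiJ strains, aged 14 days and given no treatment in the labels. There were 2 DNase-seq libraries of 1 group, with replicate 2 labelled as a pool of 3 males and replicate 1 as male with no pool mentioned. Both libraries name the same donor record, so the labels do not settle whether they hold tissue of the same animals. DNase-seq counts where the enzyme DNase I cuts the DNA of nuclei, and stretches that are cut often are listed as peaks.

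An imprinted gene is expressed mainly from the copy inherited from 1 parent, under the control of a nearby region whose DNA is methylated on the maternal or the paternal copy alone. At the H19 control region the insulator protein CTCF binds the unmethylated maternal copy, and at Peg3 the factor YY1 binds repeated sites in the first intron of the unmethylated paternal copy. ZFP57 is a zinc-finger protein that recognises TGCCGC when it is methylated and keeps the methylation in place. The deposited peaks join both parental copies, so no value below belongs to 1 allele.

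The sequences that these factors are known for are shown first, because peaks and footprints are described below by where they fall on them. All are reference bases of GRCm38 from RefSeq, printed 5′ to 3′, and capitals mark the match. For CTCF the letters CCNCNNGGNGGC were searched on both strands. The 4 matches in the H19 control region, 2 to 4.5 kb upstream of the 5′ end that most annotated H19 transcripts share, all lie on the minus strand, the strand of H19 itself.
H19 control region, chr7:142580301-142580332, minus strand: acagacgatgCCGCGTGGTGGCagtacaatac
H19 control region, chr7:142580756-142580787, minus strand: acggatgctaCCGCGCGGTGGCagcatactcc
H19 control region, chr7:142581782-142581813, minus strand: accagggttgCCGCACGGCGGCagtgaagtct
H19 control region, chr7:142582026-142582057, minus strand: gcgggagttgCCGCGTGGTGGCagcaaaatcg

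The YY1 search used GCCATNTT on both strands. All 8 matches in peaks inside Peg3 read GCCATCTT on the minus strand, which is the strand of the gene. They lie between 827 and 2993 bp inside it, in its first intron.
Peg3 intron, chr7:6727413-6727440, minus strand: tccctctggcGCCATCTTtgttggccac
Peg3 intron, chr7:6727835-6727862, minus strand: ccacctgggcGCCATCTTtacttgtcat
Peg3 intron, chr7:6728392-6728419, minus strand: tggtgcagacGCCATCTTgaatgacagg
Peg3 intron, chr7:6728441-6728468, minus strand: ccaatttggcGCCATCTTtgccagcaat
Peg3 intron, chr7:6728729-6728756, minus strand: ctaccctgacGCCATCTTtgctggctga
Peg3 intron, chr7:6728870-6728897, minus strand: ccatcctggcGCCATCTTtcctggccaa
Peg3 intron, chr7:6729473-6729500, minus strand: cccgcttggcGCCATCTTgaaatgaccg
Peg3 intron, chr7:6729579-6729606, minus strand: cccagttggcGCCATCTTggagggtgga

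The next sites are some of the CTCF matches of other clusters that were inside peaks and wholly covered by footprints in both libraries. A footprint is a short run of bases that the authors list as protected from the enzyme within an open stretch. At the first of the Cdkn1c sites a second match on the opposite strand starts 1 bp away, and the pair is 1 site.
Upstream of Cdkn1c, chr7:143464070-143464101, minus strand: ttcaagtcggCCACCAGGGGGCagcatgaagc
Upstream of Cdkn1c, chr7:143466488-143466519, minus strand: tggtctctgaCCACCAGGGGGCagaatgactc
Airn intron, chr17:12810653-12810684, minus strand: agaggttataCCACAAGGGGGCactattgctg
Meg3, chr12:109543030-109543061, minus strand: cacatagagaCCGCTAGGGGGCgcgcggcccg

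For ZFP57 the letters TGCCGC were searched on both strands, so that GCGGCA in the sequences below is a match on the minus strand. Peaks with 3 matches are shown, from replicate 1. In the intergenic region of Dlk1-Meg3 the 3 matches start 46 bp apart. Of 39 ZFP57 matches in peaks of the 34 genes, 4 overlap a CTCF match, since the letters of both motifs can run into each other, as they do at H19 and at Copg2.
Dlk1-Meg3 intergenic control region, chr12:109528237-109528399, plus strand: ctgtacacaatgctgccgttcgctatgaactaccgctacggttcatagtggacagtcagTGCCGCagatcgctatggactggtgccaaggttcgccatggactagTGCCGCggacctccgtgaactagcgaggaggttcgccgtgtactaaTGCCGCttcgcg
Kcnq1ot1, inside the transcript, chr7:143295641-143295860, plus strand: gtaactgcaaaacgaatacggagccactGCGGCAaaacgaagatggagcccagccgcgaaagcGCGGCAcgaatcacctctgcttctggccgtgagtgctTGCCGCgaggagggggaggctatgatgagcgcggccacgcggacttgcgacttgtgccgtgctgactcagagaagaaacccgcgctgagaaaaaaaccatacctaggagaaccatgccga

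The libraries listed 94786 and 77403 peaks and 326313 and 252174 footprints, in the order replicate 1 and replicate 2, which is kept throughout. A peak's score is ranked here within its own library and given as a percentile, its average rank as a percentage of that library's peaks. Read depth is not given in the sources used here. All 8 lung markers, among them Sftpc and Nkx2-1, had a promoter peak in both libraries, and of 9 markers of other tissues only Gfap had one, at percentiles 88.9 and 77.3. Of the listed peaks, 1.24% and 0.984% overlapped another peak of the same library, including 4 and 8 peaks of the 34 genes. Peaks are counted as listed.

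Most of the imprinted genes had open chromatin at a promoter, but the peaks there ranked lower than at other open genes. A promoter peak is a peak within 1 kb of any annotated transcript 5′ end of the gene, and a gene with at least 1 is called open. A promoter peak was listed for 27 of the 34 genes (79.4%) in replicate 1 and for 25 (73.5%) in replicate 2, beside 55.5% and 53.0% of all genes. Most of the 34 genes are protein-coding, and of all protein-coding genes 66.6% and 64.1% were open. Of long noncoding genes, 31.6% and 28.8% were open. The same 25 genes were open in both libraries, beside 52.1% of all genes. The 7 without a promoter peak in either library were H19, Rtl1, Rian, Ndn, Magel2, Nap1l5 and Zdbf2. In bulk tissue, a site open in fewer cells and a site cut less often per cell cannot be told apart.

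Among open genes, the median percentile of the highest promoter peak was 79.7 and 75.4 for the imprinted genes, beside 88.5 and 88.6 for all open genes. With the outermost 5′ end of each gene alone, 64.7% and 52.9% of the imprinted genes were open, beside 51.9% and 49.3% of all genes, so that the shares nearly met in replicate 2. The imprinted genes had a median of 6.5 annotated 5′ ends, beside 2 for all genes, which gives them more places to hold a peak. At 5 or more 5′ ends, 18 and 16 of 20 imprinted genes were open (90.0% and 80.0%), beside 91.6% and 89.4% of all such genes. With fewer 5′ ends, 9 of 14 were open in each library (64.3%), beside 43.4% and 40.7%. The higher open share of the imprinted genes was thus seen among genes with few 5′ ends and not among those with many. The ranks divided the other way: at 5 or more 5′ ends the median percentile of open imprinted genes was 79.0 and 74.96, beside 92.1 and 91.6 for all such open genes, and with fewer it was 84.0 and 78.0, beside 84.5 and 85.1.

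Base composition divided the genes further. The ratio of observed to expected CpG, taken from the 1 kb window with the highest value around a 5′ end, was at least 0.75 for 16 imprinted genes. Of these, 14 and 12 were open (87.5% and 75%), beside 96.3% and 94.8% of all genes in that class. Of the 18 with a lower ratio, 13 were open in each library (72.2%), beside 41.2% and 38.2% of all genes. CpG-rich imprinted genes were thus open less often than CpG-rich genes at large, and CpG-poor imprinted genes more often, with 16 and 18 genes behind these shares. In the CpG-rich class the median percentile was 80.8 and 80.5 for open imprinted genes, beside 93.6 and 93.0 for all open genes, and in the CpG-poor class it was 79.7 and 75.4, beside 80.5 and 81.1. The lower rank was thus mainly in the CpG-rich genes and in those with many 5′ ends. Of the CpG-rich genes, Nap1l5 and Zdbf2 had no promoter peak in either library, and Igf2 and Dlk1 had one in replicate 1 alone. The highest promoter peak was centred over 500 bp from its nearest own 5′ end at 5 of 27 and 5 of 25 open imprinted genes, beside 12.1% and 11.4% of all open genes. Several promoter peaks at a gene were common: 20 and 14 imprinted genes (58.8% and 41.2%) had 2 or more, beside 32.6% and 27.0% of all genes. At 5 or more 5′ ends the shares were 60.0% and 45.0%, beside 63.8% and 55.3% of all such genes, so no excess was seen there. With fewer 5′ ends they were 57.1% and 35.7%, beside 22.1% and 17.5%, so the excess was seen in that class.

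**Figure D1:**
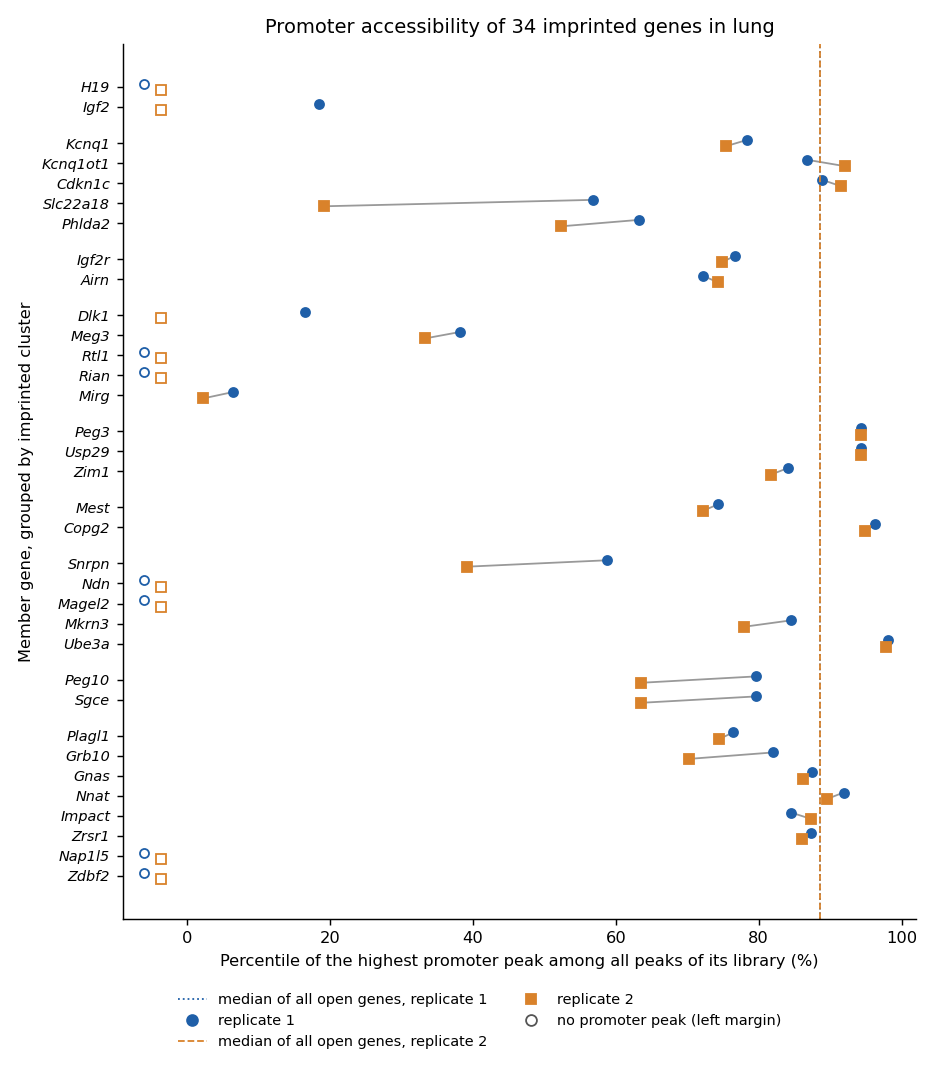
Each row is 1 of the 34 genes, grouped by imprinted cluster, and the horizontal axis is the percentile of its highest promoter peak among all peaks of that library, with circles for replicate 1 and squares for replicate 2. Open symbols in the left margin are genes without a promoter peak; the vertical lines, at 88.5 and 88.6, are the medians of all open genes and nearly coincide. Ube3a, Copg2, Peg3, Usp29, Nnat and Cdkn1c lie above them in both libraries, while Mirg and Meg3 are low in both.

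The libraries ranked the promoters alike. Over the 25 genes open in both, the percentiles had a Pearson correlation of 0.937 and a Spearman correlation of 0.938, beside 0.956 and 0.967 over the 16732 genes open in both. These correlations are across genes of the same 2 libraries, and Peg3 shares its highest peak with Usp29, as Peg10 does with Sgce.

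The growth-factor cluster of H19 and Igf2 had a peak listed in both libraries at its control region, but at neither gene's promoter. H19, a noncoding RNA expressed from the maternal copy, had no promoter peak in either library, although the authors' larger list of replicate 1 held 1 there. Igf2, a fetal growth factor expressed from the paternal copy, had a promoter peak at percentile 18.5 in replicate 1 and none in replicate 2. In the larger lists Igf2 had 3 and 2 promoter peaks. The control region held 3 peaks in replicate 1, at percentiles 45.1, 68.0 and 39.9, and 1 peak in replicate 2, at 42.7. Every one of these peaks lay over a CTCF match, and the peak of replicate 2 overlapped the highest one of replicate 1. Of the 12 bases of that match, which starts at chr7:142580766, footprints covered 12 in replicate 1 and 10 in replicate 2. At the matches starting at chr7:142580311 and chr7:142581792, footprints covered 4 and 8 bases in replicate 1, and 7 and 5 bases in replicate 2, where no peak was listed. The match farthest from H19, starting at chr7:142582036, lay in no peak and had 1 and 0 bases covered. In the larger lists the region had 4 and 3 peaks. On the side of Igf2 that faces away from H19, distal peaks lay 9.02 kb upstream of a 5′ end (distance in replicate 1), at percentiles 71.5 and 56.2, and 5.51 kb upstream, at 63.4 and 41.7. Both were listed in both libraries, and both ranked higher than the Igf2 promoter peak of replicate 1.

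**Figure D2:**
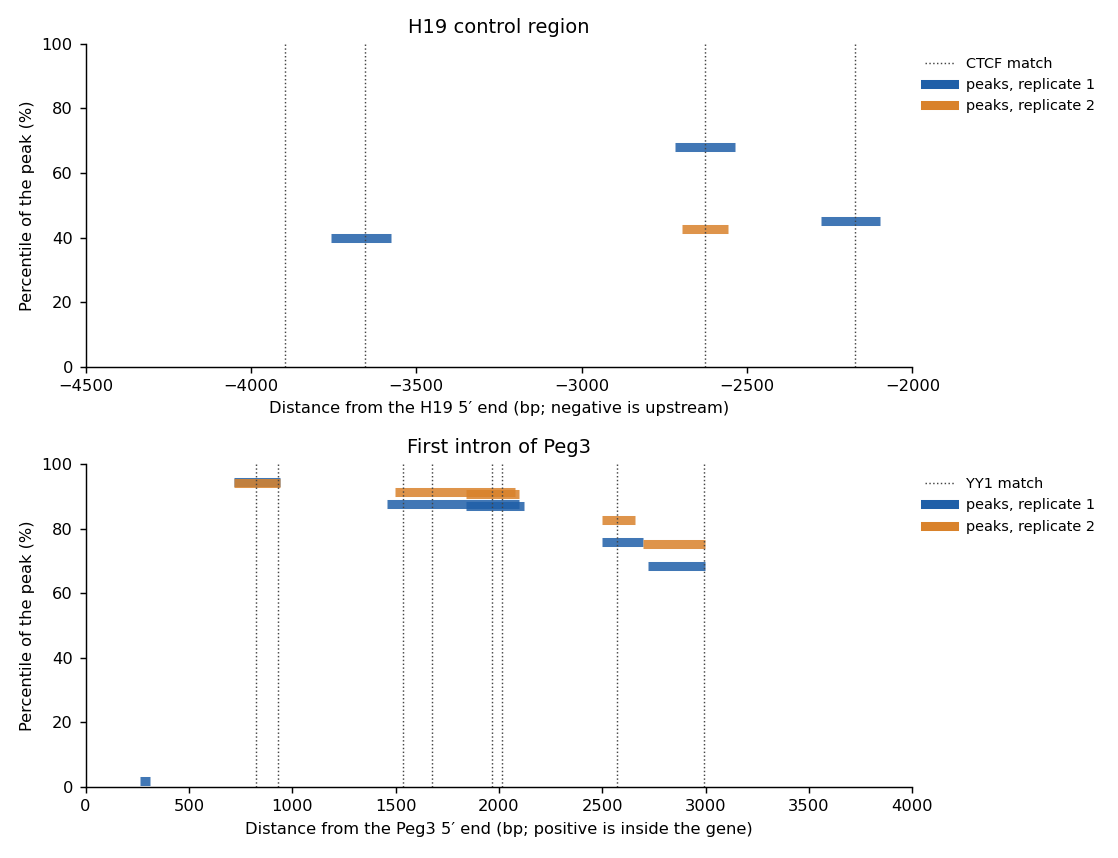
Bars are listed peaks, drawn to scale along the horizontal axis (distance in bp from the H19 or the Peg3 5′ end) and placed by their percentile on the vertical axis, in blue for replicate 1 and orange for replicate 2. Dotted lines are CTCF matches in the H19 control region (4) and YY1 matches inside Peg3 (8). The H19 region has 1 match outside every peak, while all YY1 lines cross a peak in both libraries.

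All 5 genes of the Kcnq1 domain were open in both libraries. Kcnq1ot1, a long noncoding RNA whose promoter is the domain's control region, ranked at 86.8 and 92.1. Its highest peak was centred about 0.1 kb upstream of the 5′ end and held no match to any of the 3 motifs. A second peak, centred 799 and 782 bp inside the transcript at percentiles 46.2 and 35.5, held the 3 ZFP57 matches printed above in replicate 1 and 2 of them in the narrower peak of replicate 2. Cdkn1c, an inhibitor of cyclin-dependent kinases expressed from the maternal copy, ranked at 88.9 and 91.5. Kcnq1, a potassium channel subunit, ranked at 78.4 and 75.4. Phlda2, a restrainer of placental growth, ranked at 63.2 and 52.4. Slc22a18, a membrane transporter, ranked at 56.7 and 19.2, with a lone promoter peak in each library. Among genes open in both libraries its mean percentile of 38.0 was above those of Mirg and Meg3 alone, and no gene open in both libraries had a wider gap between them in the plot of promoter percentiles.

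Kcnq1 also had the most distal peaks, 22 and 16. A distal peak is one that lies over 1 kb from the transcript 5′ ends of all genes and within the gene body or 20 kb on either side. An intronic peak 44.8 kb past a 5′ end of Kcnq1 reached percentiles 90.9 and 81.0, and a second, at chr7:143314021-143314220 in both libraries, reached 88.4 and 86.2. Upstream of Cdkn1c, distal peaks in both libraries covered the CTCF sites printed above. Percentiles there were 88.3 and 64.1 for the nearer site, and 87.4 and 79.6 for the farther of those printed. Footprints covered all 12 bases of each in both libraries.

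Igf2r and Airn ranked close together and were alike in both libraries. Igf2r, the receptor that binds and clears IGF2, is expressed from the maternal copy and ranked at 76.6 and 74.8. Airn, the noncoding RNA that starts inside an Igf2r intron on the paternal copy, ranked at 72.3 and 74.3. Its peak had the same borders in both libraries, chr17:12741221-12741440, with 4 footprints in each. Inside Airn, 5.29 kb before an inner 5′ end in replicate 1, a peak over the CTCF match printed above ranked at 83.3 and 78.9. Igf2r had 9 and 6 distal peaks, and Airn had 9 and 7, some of them shared.

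In the Dlk1-Meg3 cluster no promoter peak ranked above 38.1 in either library. Dlk1, a ligand-like protein of the Notch family expressed from the paternal copy, had promoter peaks in replicate 1 alone, the higher one at percentile 16.5. Meg3, a maternally expressed noncoding RNA, ranked at 38.1 and 33.3. That peak was centred 782 and 764 bp past an inner 5′ end and covered the CTCF match printed above. Footprints covered all 12 bases of the match in both libraries. Mirg, a noncoding host of microRNAs, ranked at 6.38 and 2.19 with no footprint in its promoter peak. Rtl1, a gene derived from a retrotransposon, and Rian, a host of small nucleolar RNAs, had no promoter peak, and no base within 1 kb of their 5′ ends was listed by the authors at a false discovery rate up to 0.05. The intergenic control region, 10 to 16 kb upstream of Meg3, had 1 peak in replicate 1, at percentile 28.8, and none in replicate 2. Each larger list held 1 peak there. The cluster's strongest peak lay elsewhere, 14.9 kb upstream of Dlk1, at percentiles 90.6 and 80.3.

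Peg3, a zinc-finger gene expressed from the paternal copy, and Usp29, a deubiquitinase gene that starts beside it on the other strand, shared the highest promoter peak of their domain. The peak at chr7:6729481-6729700 had the same borders in both libraries, scores of 8.87 and 9.79, and percentiles of 94.4 and 94.3. It is centred 829 bp inside Peg3, while the peak over the start itself ranked at 77.8 and 74.2. The next peaks inward ranked at 87.6 and 91.3, at 75.9 and 82.7, and at 68.5 and 75.1. Together these intronic peaks cover the 8 YY1 matches printed above in both libraries. The one at 87.6 and 91.3 holds 4 matches and overlaps a shorter listed peak. In each library only 1 other peak in the genome had 4 or more YY1 matches, at chr12:108794141-108794340. Zim1, a neighbouring zinc-finger gene, ranked at 84.0 and 81.7. Usp29 had 14 distal peaks in each library, the highest outside Peg3 lying at chr7:6918381-6918560 at percentiles 90.6 and 83.8.

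Of Mest and Copg2, which overlap tail to tail, Copg2 was among the highest of all 34 genes. Copg2, a subunit of the vesicle coat COPI, ranked at 96.3 and 94.9 with 1 promoter peak and 4 footprints in each library. A CTCF match in that peak starts at chr6:30896907, and footprints covered all 12 of its bases in both libraries. Mest, a hydrolase-like gene expressed from the paternal copy, ranked at 74.4 and 72.2. Its peak over the 5′ end had 2 ZFP57 matches in both libraries, and a second peak 940 bp upstream ranked at 73.5 and 71.4. The peaks of Mest thus differed little from each other in rank, and both lay at 1 group of 5′ ends, the other groups having none.

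The Snrpn domain held both the highest promoter of all and genes with none. Ube3a, a ubiquitin ligase imprinted mainly in neurons, ranked at 98.0 and 97.8, above the other 33 genes in both libraries. Mkrn3, a ubiquitin ligase linked to the timing of puberty, ranked at 84.5 and 78.0. Snrpn, a spliceosome protein whose promoter lies in the domain's control region, ranked at 58.8 and 39.2, and its highest peak held 2 ZFP57 matches in both libraries. Ndn and Magel2, members of the MAGE family expressed from the paternal copy, had no promoter peak. At Ndn a peak 1711 bp past the 5′ end, in an exon, ranked at 73.3 and 62.7. It lay outside the 1 kb window of the only annotated 5′ end of Ndn and counts as distal. The ratio of observed to expected CpG was 0.777 and 0.738 in that peak, beside 0.170 around the 5′ end. Whether the peak marks another start of Ndn was not tested. Magel2 had 3 and 1 distal peaks. Snrpn and Ube3a had no distal peak in either library.

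Peg10, a gene derived from a retrotransposon, and Sgce, a sarcoglycan, start next to each other on opposite strands and shared their highest promoter peak, at 79.7 and 63.5. A distal peak in an intron, about 1.9 kb inside Peg10, ranked higher than that promoter, at 94.0 in both libraries, with 6 and 7 footprints. No other distal peak of the 34 genes ranked as high in either library.

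The single loci ranged from 70.3 to 91.9 where open. Nnat, a small membrane proteolipid gene, ranked at 91.9 and 89.6. Its peak was centred 341 bp past an inner 5′ end, while peaks nearer the outer 5′ end were listed in replicate 1 alone, the higher at 19.03. Zrsr1, a gene related to the splicing factor U2AF, ranked at 87.3 and 86.0. Impact, a regulator of the stress kinase GCN2, ranked at 84.5 and 87.3. Gnas, which encodes the stimulatory G protein alpha subunit, had 9 and 10 promoter peaks over its several promoters and ranked at 87.4 and 86.2. The highest peak was not the same one in both libraries. In replicate 1 it was centred 24 bp past a 5′ end, and in replicate 2 it was a peak 400 bp upstream of another, internal 5′ end. Its outermost promoters ranked lower, at 30.1 and 12.3 and at 41.3 and 15.7. Plagl1, a zinc-finger regulator of growth, ranked at 76.4 and 74.5. Grb10, an adaptor that restrains insulin signalling, ranked at 82.0 and 70.3 at an inner group of 5′ ends, and at 73.4 and 38.2 at its outermost group.

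Nap1l5, a nucleosome assembly protein family member, and Zdbf2, a zinc-finger gene, were the single loci with no promoter peak and no distal peak in either library. Both have CpG-rich 5′ ends, with ratios of 0.816 and 0.981. At Nap1l5, 153 bases of the promoter window in replicate 1 were listed by the authors at a false discovery rate up to 0.05, and their larger list held 1 peak there. At Zdbf2 no base was listed in either library.

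Peaks of the 34 genes held ZFP57 matches more often than peaks at large. Of the distinct promoter peaks, 68 in replicate 1 and 53 in replicate 2, 29.4% and 26.4% held TGCCGC, beside 15.96% and 16.13% of all promoter peaks. Within 75 bp of the peak's centre, a window of 1 length for all peaks, the shares were 23.5% and 20.8%, beside 11.4% and 11.4%. Leaving out peaks with a CTCF match in that window, they were 24.2% and 22.0%, beside 11.2% and 11.2%. Of whole distal peaks 10.6% and 7.5% held TGCCGC, beside 4.27% and 4.27% of all distal peaks. Within 75 bp of the centre the distal shares were 6.73% and 5.0%, beside 3.78% and 3.75%, and without the peaks that had a CTCF match there, 4.30% and 4.17%, beside 3.67% and 3.62%. The difference at promoters thus remained when CTCF matches were set aside, and that at distal peaks was small. Several of these peaks come from the same gene, so they are not independent, and the shares are a description.

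CTCF matches stood in 10.3% and 9.43% of the promoter peaks, beside 6.62% and 6.95% of all promoter peaks. In distal peaks they stood in 12.5% and 11.3%, beside 7.12% and 7.41%, which is 13 of 104 and 9 of 80 peaks. Within 75 bp of the centre the promoter shares were 8.82% and 5.66%, beside 5.11% and 5.40%, so that in replicate 2 they nearly met. The distal shares there were 10.6% and 10.0%, beside 6.98% and 7.25%. YY1 matches stood in 4.41% and 3.77% of promoter peaks, beside 4.82% and 5.33%. In distal peaks they stood in 5.77% and 6.25%, beside 2.64% and 2.61%. Most of those peaks lie in Peg3, where overlapping peaks each count. Within 75 bp of the centre the distal YY1 shares were closer, 3.85% and 3.75%, beside 2.345% and 2.39%. A footprint touched 17 of 22 and 12 of 15 CTCF matches in peaks of the 34 genes, beside 82.1% and 80.2% of those in all peaks. For ZFP57 it touched 10 of 39 and 7 of 22, beside 31.1% and 32.4%. For YY1 it touched 10 of 12 and 6 of 10, beside 46.0% and 44.7%, and 8 of the 12 lie in Peg3. CTCF matches were therefore touched about as often as elsewhere. A match says only that the letters are present, and whether the factor was bound was not tested.

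**Figure D3:**
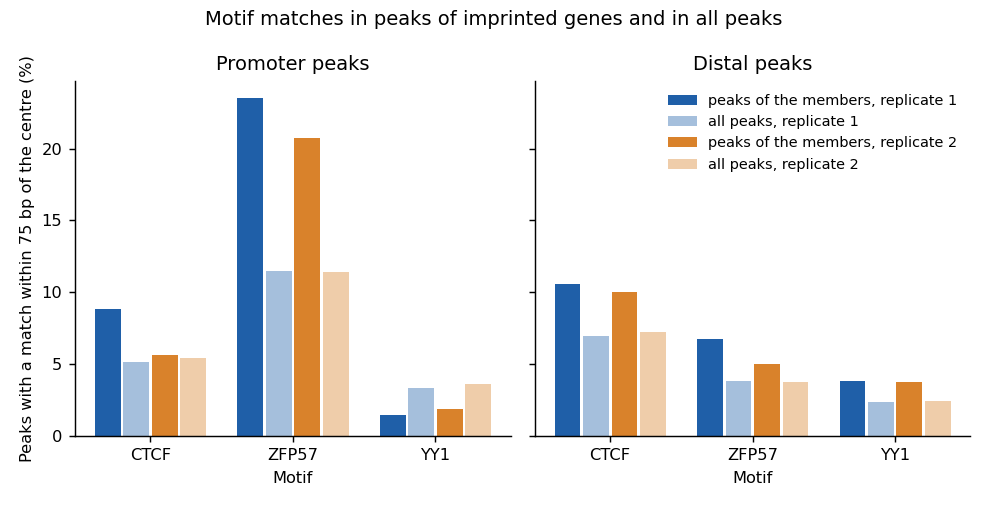
Bars give the percentage of promoter peaks (left) and distal peaks (right) with a match within 75 bp of the centre, dark for peaks of the 34 genes and pale for all peaks, blue for replicate 1 and orange for replicate 2. ZFP57 at promoters stands apart, at 23.5% and 20.8% beside 11.4% in all promoter peaks of each library.

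Distal peaks were most numerous at Kcnq1 and Usp29, which at 321 and 237 kb are also the longest of the 34 genes. The 34 genes had 104 and 80 distinct distal peaks, with a median of 2 per gene in each library, beside 2 and 1 for all genes. In replicate 1, 71.2% of the distal peaks overlapped a peak of replicate 2, and 92.5% in the reverse direction, beside 71.0% and 87.9% of all distal peaks. For promoter peaks these shares were 72.1% and 92.5%, beside 78.9% and 93.4%. Replicate 1 lists more peaks, so that a smaller share of them has a partner. Of the footprints in promoter peaks of the 34 genes, 101 of 153 and 108 of 147 overlapped one of the other library (66.0% and 73.5%), beside 69.4% and 73.7% for all promoter peaks.

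**Figure D4:**
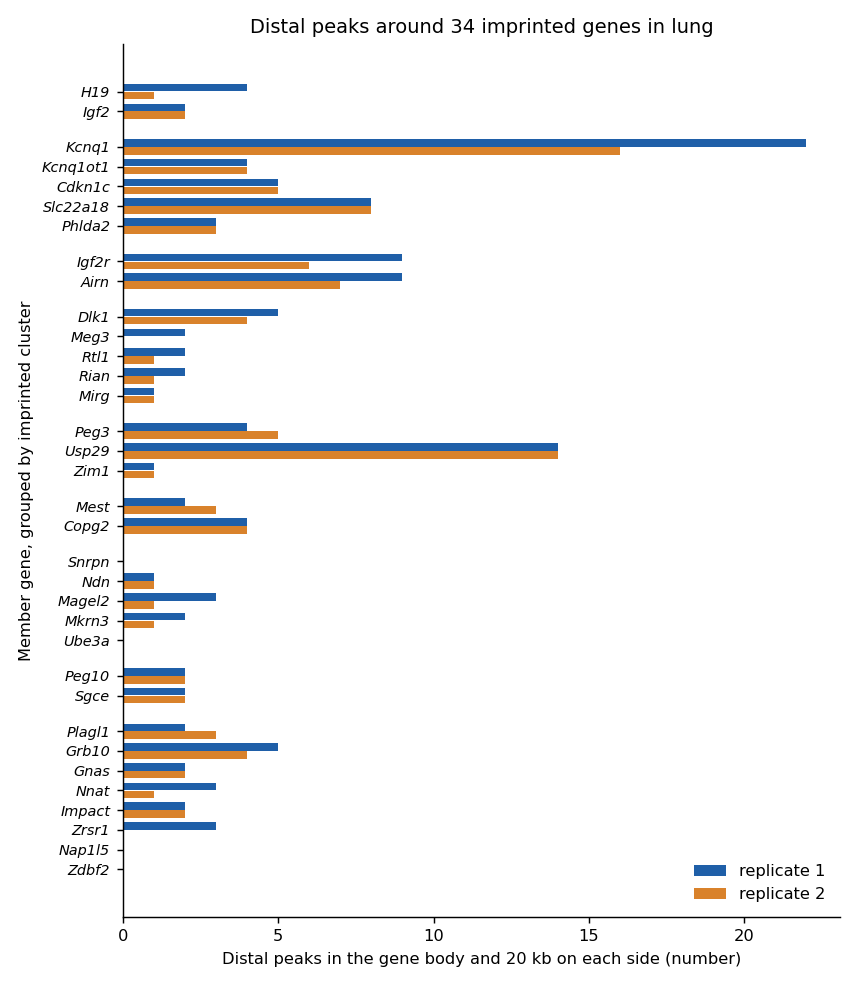
Each pair of bars is the number of distal peaks of 1 gene, within its body and 20 kb on each side, in blue for replicate 1 and orange for replicate 2. Kcnq1 (22 and 16) and Usp29 (14 and 14) have the most, and 4 genes in replicate 1 and 6 in replicate 2 have none; a peak near several genes counts for each.

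Other imprinted genes were examined for comparison. Of 47 listed, 45 matched the annotation, and 32 and 31 of these were open (71.1% and 68.9%), beside 55.5% and 53.0% of all genes. Their median percentiles were 84.7 and 83.2, beside 88.5 and 88.6 for all open genes. Those highest by the mean of both libraries were Inpp5f, an inositol phosphatase, at 99.5 and 99.6, Dhcr7, an enzyme of cholesterol synthesis, at 99.5 and 99.4, and Nap1l4, a histone chaperone, at 98.0 and 99.5. The first without a promoter peak in alphabetical order were Adam23, Calcr and Dcn. Regulators of imprinting, among them DNA methyltransferases and the Tet genes, were open in 17 of 18 cases in both libraries (94.4%). The share was 55.5% and 53.0% over all genes, and 91.6% and 89.4% over genes with 5 or more 5′ ends. These regulators had a median of 9 annotated 5′ ends. The highest by that mean were Ezh2, a Polycomb methyltransferase, at 97.9 and 97.2, Uhrf1, which recruits Dnmt1, at 97.2 and 95.3, and Dnmt1, the maintenance DNA methyltransferase, at 95.4 and 95.4. The exception was Dppa3, an oocyte factor. Of the genes for the proteins whose motifs were searched, Ctcf ranked at 92.6 and 88.1 and Zfp57 at 73.3 and 73.0.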

How the data were processed

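The authors deposited, for each library, 2 peak lists, a list of footprints and a list of bases with their false discovery rate, on mm10 per the labels. No source used here names the aligner, the callers or their settings. The peak value deposited by the authors is a signal with no stated scale, so it was only ranked within its own list. The deposited footprints carry 1 constant p-value, 0.01, and the deposited base lists hold false discovery rates up to 0.05. Read depth is unknown.

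From these files the shorter peak list of each library was used, as the rule for the genes states. Peaks within 1 kb of a transcript 5′ end (GENCODE M21) are promoter peaks, distal peaks were counted with flanks of 20 kb, overlap means at least 1 bp, and a footprint belongs to the peak that holds its midpoint. Regions for Kcnq1ot1, Airn, Peg3, Mest, Snrpn and the single loci are promoter windows, split where 5′ ends lie more than 2 kb apart. Sequence is RefSeq GRCm38. Bases of chromosome 18 are not printed. Only some of the CTCF matches are described one by one. The interval and motif functions were tested on simulated data. Python 3.11.15, numpy 2.4.6, pandas 2.3.3 and matplotlib 3.10.9 were used.

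The genes, lists and motifs were chosen with earlier results of these data known. The percentile of the highest promoter peak, or its absence, was given for the 3 genes with the highest and the 3 with the lowest mean percentile. The same was given for genes open in 1 library or none. For the control region of each locus, the percentile of at least the highest peak was given where a peak was listed. Footprints and distal counts were given for some of these genes. From each of the other lists, the 3 highest genes and up to 3 without a peak were named. Genes named beyond these were chosen by cluster. With 1 group and 2 libraries no comparison between groups and no test was made. Alternatives covered the promoter window, the 5′ ends, the peak list, a higher score, the flanks, the overlap, the motif window and each library left out.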

Additional observations from a re-analysis of the deposited data

How the results depend on the processing

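No paired analysis was possible because there is 1 group of 2 libraries. Of 65 alternative values, 31 moved by more than the spread between the libraries or, for counts, by over 1.5 times. With 1 library left out, the count is that of the other: 27 genes open in replicate 1 and 25 in replicate 2. A window of 500 bp left out Meg3 and Mirg in replicate 2, and 2500 bp added Ndn in both libraries and H19 and Magel2 in replicate 1. The peak so added at H19 belongs to its control region, and that at Ndn is the exonic peak described above. With the outermost 5′ end alone, 22 and 18 genes were open (64.7% and 52.9%, beside 51.9% and 49.3% of all genes), the losses including Mest, Snrpn and Plagl1. Under the other windows, the larger lists and the higher-scoring 50%, the imprinted genes were open more often than all genes in both libraries, and under all of these their median percentile was lower. The median number of footprints at open genes was 4 and 4 with 500 bp, 4 and 4 with the outermost end, 6 with the larger list and 4 with the higher-scoring 50% of peaks, the last values for replicate 1. The median percentile was 79.9 with 2500 bp in replicate 2, 86.8 and 83.4 in the larger lists, and 84.0 and 81.7 in the higher-scoring 50%. The median number of distal peaks was 3 and 2.5 in the larger lists, 1 and 1 in the higher-scoring 50%, 0 and 0 without flanks, and 7.5 and 7 with flanks of 100 kb. Distinct distal peaks numbered 148 and 123 in the larger lists, 49 and 36 in the higher-scoring 50%, 67 and 57 without flanks, and 193 and 154 with 100 kb. The share of peaks with the CTCF letters, 11.6% and 10.5% over promoter and distal peaks, was 9.57% and 9.63% in the larger lists, 12.5% and 14.3% in the higher-scoring 50%, and 9.88% and 8.27% within 75 bp of the peak centre. The cause of these shifts was not tested. With no read depth, a missing peak in replicate 2, such as those of Igf2 and Dlk1, is not shown to be absent: the larger list of replicate 2 held both.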
